A study of Rattus norvegicus with 11 samples.

Results

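The 10 genes described here are the mitochondrially encoded respiratory chain genes Nd1, Nd2, Nd3, Nd4, Nd5, Cyb, Co1, Co2, Co3 and Atp6, chosen as 10 Ensembl identifiers among the 32883 genes counted in every rat. The rule names the genes by identifier alone, though it was written with earlier results of these data known, and the symbols came with the identifiers, since neither the count files nor the reference table pairs these identifiers with names. RNA was taken from the corpora quadrigemina (the inferior and superior colliculi of the midbrain) of 11 male rats aged 4 months and sequenced as poly(A)-enriched libraries. The 3 KM rats belong to the Krushinsky-Molodkina strain and carry the label prone to audiogenic epilepsy, that is, seizures set off by sound. The 4 “0” rats come from a strain bred from KM and Wistar hybrids for the absence of such seizures, carry the label less prone to audiogenic epilepsy, and were limited to animals that did not respond to sound. The 4 W rats are Wistar animals labelled wild type, and animals with a wild run were not used. All rats were exposed to sound 4 days before the tissue was taken, so that no group was free of sound exposure. KM and “0” rats had also been tested with sound earlier, “0” rats more often than KM rats. The paper records tonic convulsions of maximum intensity after sound in KM rats and describes the “0” and W rats used as not prone. Seizures and the number of sound tests thus go with strain and cannot be told apart from it. The labels give Wistar as the strain of all 3 groups and tell them apart by genotype. KM and “0” are selected lines, and any trait fixed by breeding is part of the comparison.

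Mitochondrial DNA is a small circular genome present in many copies per cell. It encodes a minority of the subunits of the respiratory chain, the series of membrane complexes that pumps protons across the inner mitochondrial membrane, and of the ATP synthase that uses the proton gradient. The remaining subunits are encoded in the nucleus, made in the cytosol and imported. Mitochondrial genes are transcribed as long joint precursors that are cut into the separate messengers, most of which receive short poly(A) tails, and neurons are known for a high demand for the ATP this system provides.

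Reads assigned to genes ranged from 10545964 in “0” 2 to 15140180 in KM 3, with a median of 11861682 over the 11 rats. Values of the 10 genes are counts scaled to the total of assigned reads (CPM), or percentages of assigned reads. Where TMM factors, which adjust library totals so that most genes match between rats, were applied as well, the text speaks of TMM-scaled CPM. They compare a gene between rats and, since gene lengths were not at hand, do not rank the genes by transcript level. The detection limit was set at 3 counts, equal to 0.198 CPM in the deepest and 0.284 CPM in the shallowest library. The neuron markers listed for a check of the tissue had no symbol in the table used (0 of 9 named), so the labelled tissue could not be checked against them.

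The 10 genes together took a large and variable share of the reads. In KM rats 14.2%, 13.6% and 4.87% of the assigned reads fell on them. In “0” rats the shares were 14.4%, 16.0%, 27.4% and 4.63%, and in W rats 11.8%, 15.1%, 15.8% and 17.5%, each list in the order of the replicate numbers. 3 libraries therefore stood apart, with KM 3 and “0” 4 low and “0” 3 high, while the other 8 rats lay between 11.8% and 17.5% with a mean of 14.8 ± 1.72% (SD, n = 8). The highest share was 5.91 times the lowest, and both of these rats were of the “0” strain. Counting error is small at this depth, with 95% Wilson intervals of 27.35% to 27.40% in “0” 3 and 4.62% to 4.64% in “0” 4. In “0” 3 the genes outside the 10 kept 8091928 reads, or 72.6% of the assigned reads, against 12992161 reads, or 95.4%, in “0” 4.

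**Figure D1:**
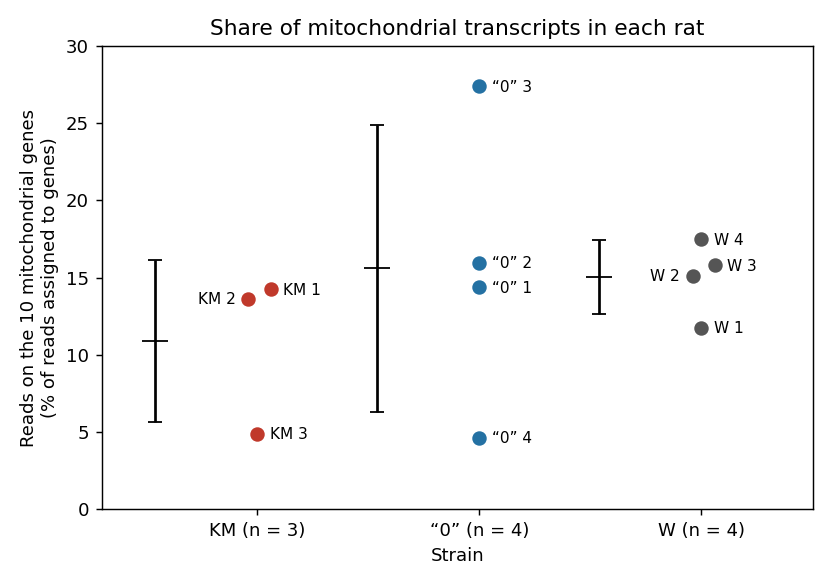
Share of reads assigned to the 10 mitochondrial genes (y axis, % of reads assigned to genes) in each rat, by strain (x axis). Each point is 1 rat, and the black bars to the left of the points give the strain mean ± SD; KM 3 (4.87%) and “0” 4 (4.63%) lie below and “0” 3 (27.4%) above the range of 11.8% to 17.5% of the other 8 rats.

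The strains overlapped in this share. The mean was 10.9 ± 5.25% in KM (SD, n = 3), 15.6 ± 9.32% in “0” (n = 4) and 15.0 ± 2.41% in W rats (n = 4). KM and W rats differed by −4.12 percentage points (exact two-sided permutation test, p = 0.286, the smallest possible being 0.0571). KM and “0” rats differed by −4.67 points (exact permutation test, p = 0.400, smallest possible 0.0571), and “0” and W rats by 0.550 points (exact permutation test, p = 0.914, smallest possible 0.0286). The sign of the latter was not stable, at −3.38 points without “0” 3, −0.546 without W 1 and 4.20 without “0” 4. As a difference of mean log2 percent it was −0.19. The overlap of KM and “0” rats came from “0” 4 alone, without which they differed by −8.32 points (exact permutation test, p = 0.100, the smallest possible). Leaving out the only “0” rat that lay below a KM rat made this p certain, so it is no support for a difference. The highest KM rat (14.24%) and the lowest remaining “0” rat (14.38%) were then close, and KM 3, about as low as “0” 4, was kept. Leaving out “0” 3 instead, they differed by −0.742 points (exact permutation test, p = 0.700). Without KM 3 the difference was −1.65 points from “0” and −1.10 points from W rats (exact permutation test, p = 0.667 for both). Without the 3 rats that stood apart the means were 13.9% in KM, 15.2% in “0” and 15.0% in W rats, with exact permutation p values of 0.667, 0.333 and 1.0 in the same order of comparisons, which so few rats could not bring under 0.05.

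Of the 10 genes, 5 encode subunits of complex I (NADH dehydrogenase), where electrons from NADH enter the chain. Nd1 (ENSRNOG00000030644) stood at 18788, 15844 and 5557 CPM in KM rats, at 17130, 17949, 32470 and 5125 CPM in “0” rats, and at 13164, 17237, 16436 and 19621 CPM in W rats. Nd2 (ENSRNOG00000031033) stood at 11330, 11393 and 1705 CPM in KM rats, at 10650, 13439, 20832 and 942 CPM in “0” rats, and at 7701, 11600, 10434 and 14380 CPM in W rats. KM 3 and “0” 4 were the lowest and “0” 3 the highest for both genes, so that the strains overlapped. Nd2 had the widest range among the members that were counted, with the highest rat 22.1 times the lowest, against 6.34 times for Nd1. Nd5 (ENSRNOG00000029971) stood at 5670, 6476 and 2654 CPM in KM rats, at 7522, 8392, 9950 and 3029 CPM in “0” rats, and at 4734, 5297, 5016 and 7324 CPM in W rats. Its range of 3.75 times was the narrowest of the 9, and 3 of the 4 “0” rats lay above every KM and W rat. Nd3 (ENSRNOG00000033615) had the fewest reads of those counted in all rats, from 303 CPM in “0” 4 to 1574 CPM in “0” 3, and no rat had fewer than 4134 reads of it.

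Nd4 (ENSRNOG00000029707), also a complex I subunit, had 0 reads in 10 rats and 1 read in “0” 2, below the limit of 3 counts in every library. Its row did not pass the filter on low counts and was tested only in the alternative without a filter, from which no value of it is given. The other 9 members had at least 4134 reads in every rat, and why this row is nearly empty was not tested. Whether its identifier stands for mitochondrial Nd4 in the annotation used for counting could not be checked. Since the nuclear genome holds copies of mitochondrial sequence and the handling of reads that fit several places is set by the mapping and counting, the counts of all 10 genes are uncertain to that extent.

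Cyb (ENSRNOG00000031766) encodes cytochrome b, the mitochondrially made subunit of complex III, which passes electrons from ubiquinol to cytochrome c. It stood at 19530, 16072 and 4489 CPM in KM rats, at 16428, 18809, 31637 and 1986 CPM in “0” rats, and at 15826, 20922, 20125 and 24275 CPM in W rats. The highest rat was 15.9 times the lowest, and again KM 3 and “0” 4 were low and “0” 3 high.

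Co1, Co2 and Co3 encode the core subunits of complex IV (cytochrome c oxidase), which hands electrons to oxygen. Co1 (ENSRNOG00000034234) stood at 44426, 43546 and 21057 CPM in KM rats, at 47642, 51617, 90624 and 25936 CPM in “0” rats, and at 39186, 48718, 56307 and 54635 CPM in W rats. It had the most reads of the 10 in every rat and a range of 4.30 times, and in KM 3 and “0” 4 it was lower than in the other 9 rats. Co2 (ENSRNOG00000030371) ranged from 3180 CPM in “0” 4 to 21694 CPM in “0” 3 and Co3 (ENSRNOG00000030700) from 3619 CPM in KM 3 to 27067 CPM in “0” 3.

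Atp6 (ENSRNOG00000031979) encodes the subunit of the ATP synthase (complex V) through which protons pass. It stood at 18905, 18487 and 4397 CPM in KM rats, at 19177, 21272, 37926 and 2037 CPM in “0” rats, and at 15744, 20276, 21378 and 24063 CPM in W rats. The highest rat was 18.6 times the lowest. Across all 9 genes “0” 3 was the highest rat and KM 3 and “0” 4 were the lowest pair, with “0” 4 lowest for 6 genes and KM 3 for 3. In the other 8 rats the highest was 1.32 (Nd3) to 1.87 (Nd2) times the lowest.

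**Figure D2:**
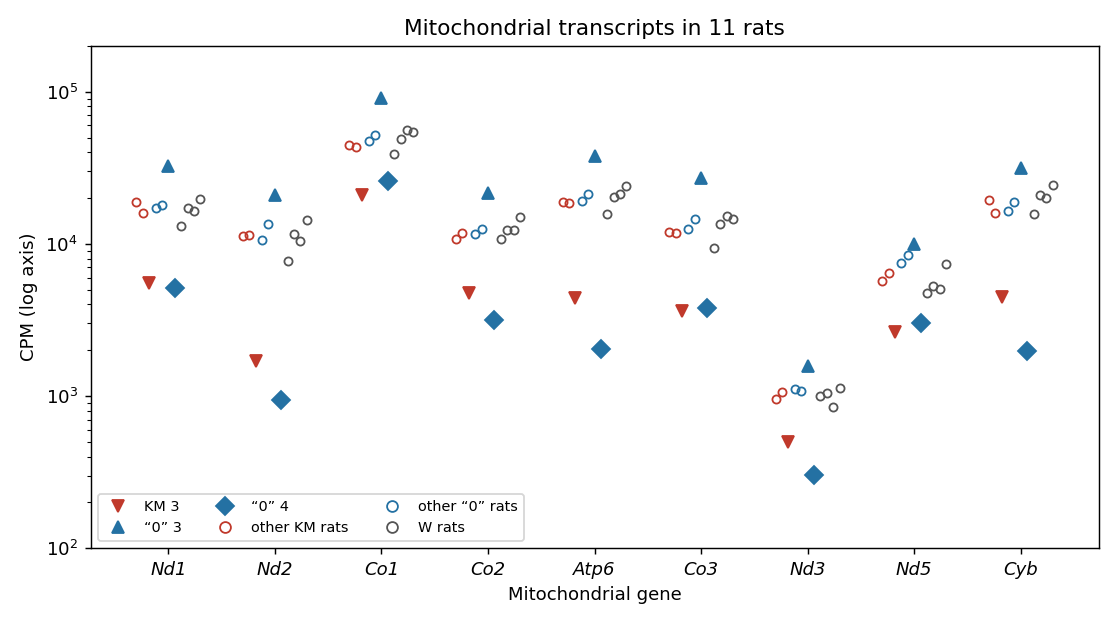
CPM (y axis, log scale) of the 9 mitochondrial genes with reads in every rat (x axis), one point per rat, with KM 3, “0” 3 and “0” 4 as filled symbols and the other rats as open circles coloured by strain. “0” 3 is the highest for all 9 genes, and KM 3 and “0” 4 are the lowest pair for all 9.

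With all rats, the spread within a strain was wide compared with other genes. The SD of TMM-scaled log2 CPM within strains ranged from 0.68 (Co1) to 1.58 (Nd2), against a median of 0.24 over the 9303 genes that averaged 10 CPM or more, and placed the 9 genes between percentiles 95.9 and 99.5 of that distribution. Without TMM factors the range was 0.57 (Co1) to 1.48 (Nd2) against a median of 0.27, at percentiles 92.3 to 99.4. Without the 3 rats that stood apart the TMM-scaled SDs ran from 0.17 (Nd3) to 0.34 (Nd2) against a median of 0.20 over all genes, at percentiles 38.7 to 83.6. Those rats were set apart for extreme values of these same genes and belong to KM or “0”. A fall of the SDs without them was thus fixed beforehand and only describes where the spread lies. With all rats W varied least of the 3 strains for all 9 genes, and without the 3 rats, with 2 KM and 2 “0” rats left, it varied most for all 9. For Atp6, for example, the SD with all rats was 0.31 in W, 1.26 in KM and 2.03 in “0” rats.

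The make-up of the mitochondrial reads also differed between rats. In the 8 rats Co1 made up 31.2% to 35.6% of the reads on the 10 genes, against 43.2% in KM 3 and 56.0% in “0” 4. Atp6 made up 13.3% to 13.8% in the 8 rats, 9.03% in KM 3 and 4.40% in “0” 4. The low share of mitochondrial reads in these libraries was thus not spread evenly over the genes. Nd2 made up 6.55% to 8.42% in the 8 rats, 3.50% in KM 3 and 2.03% in “0” 4, and Cyb made up 11.4% to 13.9%, 9.22% and 4.29%. Nd1, by contrast, took 11.4% in KM 3 and 11.1% in “0” 4, inside its range of 10.4% to 13.2% in the 8 rats. In “0” 3, where the summed share was highest, the make-up stayed close to that of the 8 rats, with 33.1% on Co1 and 7.61% on Nd2.

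Ratios within a library do not depend on how libraries are scaled. The ratio of Atp6 to Co1 reads was 0.380 to 0.440 in the 8 rats, 0.419 in “0” 3, 0.209 in KM 3 and 0.0785 in “0” 4. The ratio of Nd2 to Nd1 reads was 0.585 to 0.749 in the 8 rats, 0.642 in “0” 3, 0.307 in KM 3 and 0.184 in “0” 4. Not every ratio set “0” 4 apart, since that of Co3 to Co2 was 1.19 there, inside the 0.884 to 1.24 of the 8 rats, with 0.765 in KM 3. Distance was expressed as the percentage points that would have to move to reach the mean make-up of the 8 rats. It was 25.6 in “0” 4, 13.6 in KM 3 and 2.37 in “0” 3. In the 8 rats themselves, each set against the mean of the rest of the 8, it was 1.5 to 4.55. Of the 9 genes, 8 lay outside the range of the 8 rats in KM 3, 6 in “0” 4 and 2 in “0” 3. The 3 rats were set apart after their values were seen, so these figures describe the libraries and carry no test.

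**Figure D3:**
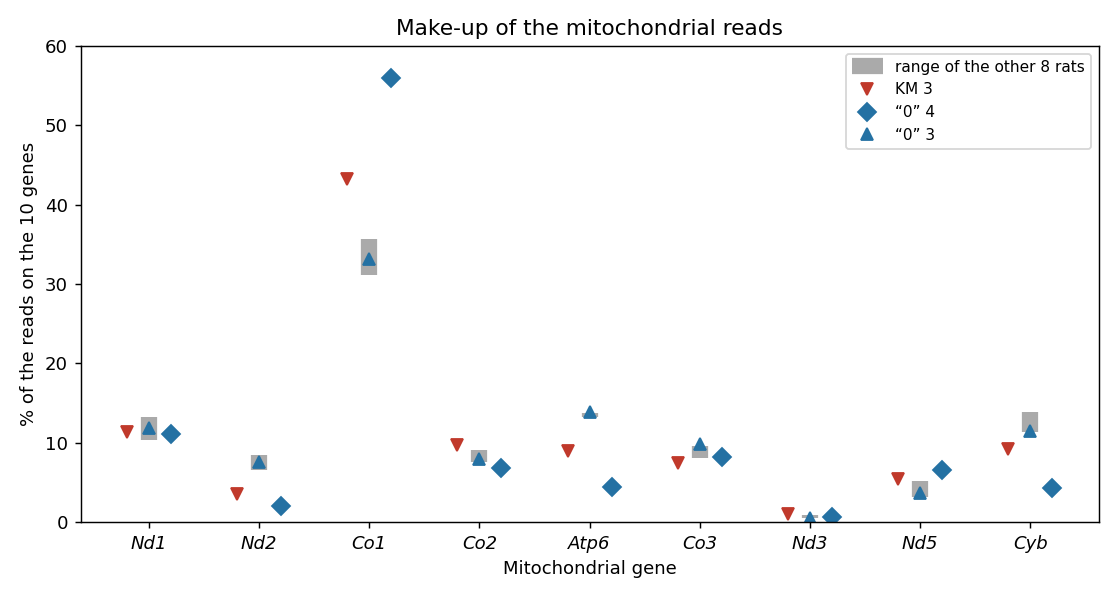
Percentage of the reads on the 10 genes taken by each of 9 genes (y axis) in KM 3, “0” 4 and “0” 3 (symbols), with the grey bar giving the range of the other 8 rats. Co1 takes 43.2% in KM 3 and 56.0% in “0” 4 against 31.2% to 35.6% in the 8 rats, and Nd2, Atp6 and Cyb take less.

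Between strains, 27 comparisons of make-up were made (9 genes in 3 comparisons), and with so few rats no adjusted p under 0.05 was possible, so these tests serve to rank the differences only. The lowest p was that of Cyb in “0” vs W, with 9.76 ± 3.65% of the mitochondrial reads in “0” (n = 4) and 13.5 ± 0.532% in W rats (n = 4). The “0” and W rats did not overlap (exact permutation test, p = 0.0286, Benjamini-Hochberg adjusted over the 27 comparisons 0.617). Without “0” 4 the ranges were 11.4% to 11.8% and 12.7% to 13.9%, still without overlap (exact permutation test, p = 0.0571, the smallest possible). Nd1 in KM vs W was the other case without overlap, at 12.1 ± 0.978% against 11.1 ± 0.448% (exact permutation test, p = 0.0571, adjusted 0.617), and its lowest KM rat, KM 3, and its highest W rat both rounded to 11.4%.

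Each pair of strains was then compared over all genes by the quasi-likelihood F-test of edgeR (QLF test) after TMM scaling, and a gene was called where its unadjusted p lay under 0.05. In KM vs W, 0 of the 9 tested mitochondrial genes were called, against 10.9% of the 13721 genes tested (5.58% higher and 5.33% lower in KM), and with DESeq2's Wald test also 0, the lowest p being 0.0620. All 9 had a negative log2-fold change, from −0.68 (Cyb) to −0.27 (Nd5) with a median of −0.54, where the median of all genes was 0.01. Unadjusted p values of the QLF test ran from 0.125 (Co1) to 0.446 (Nd5) and adjusted values from 0.588 to 0.816, where 0.0656% of all genes had an adjusted p under 0.05. For Co1 the log2-fold change was −0.54 with a standard error of 0.32 and a 95% interval of −1.27 to 0.18, that is, between 0.415 and 1.14 times the W level. These values rest largely on KM 3, without which they ran from −0.25 (Cyb) to 0.052 (Nd5) with a median of −0.19, while without KM 2 the median was −0.83. The 9 genes come from joint precursors and the same libraries, so their common sign is not 9 separate observations.

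In KM vs “0”, 0 of 9 were called (0 also with DESeq2, lowest p 0.0944), against 3.65% of the 13686 genes tested (2.37% higher and 1.29% lower in KM). All 9 log2-fold changes were negative, from −0.86 (Co3) to −0.46 (Nd3) with a median of −0.68 against 0.01 over all genes, with p from 0.180 to 0.514 and an adjusted p of 0.987 for each in the edgeR test, where 0.0146% of all genes had an adjusted p under 0.05. The intervals were wide: for Nd2 the log2-fold change was −0.68 with a 95% interval of −2.79 to 1.43. Without “0” 4, 2 genes were called, Co1 at −1.02 and Nd5 at −0.997, where 5.18% of all genes were called. Without all 3 rats that stood apart Nd5 alone was called, at −0.44, where 7.37% of all genes were called. The size of the values rests largely on single rats, since without “0” 3 they ran from −0.41 (Nd5) to 0.048 (Cyb) with a median of −0.082, and without KM 3 the median was −0.28.

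In “0” vs W, 0 of 9 were called (0 also with DESeq2, lowest p 0.231), against 6.69% of the 13630 genes tested (3.26% higher and 3.43% lower in “0”). The log2-fold changes ran from −0.13 (Cyb) to 0.43 (Nd5) with a median of 0.16. In the edgeR test p ran from 0.290 to 0.902 and adjusted p from 0.958 to 0.998, where 0.11% of all genes had an adjusted p under 0.05. Of the 9 genes 1 was negative, or 3 when scaled by library size alone, and 7 with a block for the replicate number. Without the 3 rats that stood apart 4 of the 9 were negative. The signs also rest on single rats, since without “0” 3 the log2-fold change was negative for 8 of the 9 genes (median −0.40) and without “0” 4 for 0 (median 0.49). The median was 0.082 without W 1 and 0.29 without W 4. Without “0” 4 Nd5 was called, at 0.73, where 6.03% of all genes were called. KM vs W and KM vs “0” share the KM rats, and each of the other pairs of comparisons shares a group too.

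**Figure D4:**
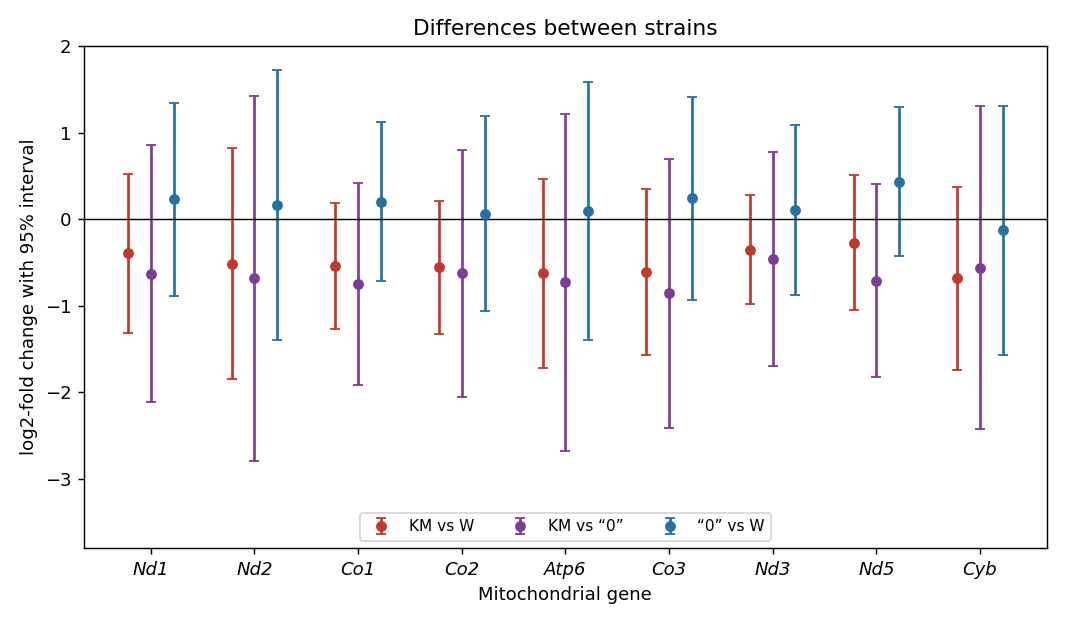
Log2-fold change (y axis) of 9 mitochondrial genes (x axis) in 3 comparisons from edgeR, with bars for 95% intervals. Every interval includes 0; the values run from −0.68 to −0.27 for KM against W, −0.86 to −0.46 for KM against “0” and −0.13 to 0.43 for “0” against W.

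The log2-fold changes of the 9 genes had a median standard error of 0.40 for KM against W, 0.66 for KM against “0” and 0.51 for “0” against W, while the medians over all genes were 0.20, 0.23 and 0.20. Differences of the size seen here were therefore not detectable with these rats, and the intervals do not show that the strains were alike. In bulk tissue, fewer cells of a type and less RNA per cell cannot be told apart.

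The nuclear genome supplies the larger number of respiratory chain subunits, and 8 of 79 listed nuclear subunit genes had a symbol in the table used. They are Ndufa11, Ndufa12, Ndufb8, Ndufb10 and Ndufv2 of complex I, Ndufa4 of complex IV, and Atp5pf and Atp5mc2 of the ATP synthase. In KM vs W all 8 were called lower (edgeR), with a median log2-fold change of −0.41, where 5.33% of all genes were called lower. The symbols come from a list of genes that the study selected as differing in these samples, so a gene was named largely because it differed. This count is therefore no independent evidence of how many subunit genes changed or of direction. Its distance from the share of all genes cannot be read as a result. Ndufb10 had the largest change at −0.59 (SE 0.19, adjusted p = 0.367, edgeR) and Ndufa12 followed at −0.55 (SE 0.16, adjusted p = 0.334, edgeR). Without KM 3, 4 of the 8 were called lower and the median was −0.34, where 11.6% of all genes were called in either direction. In KM vs “0” 0 of 8 were called (median −0.11, with 3.65% of all genes called), and in “0” vs W 0 of 8 (median −0.27, with 6.69%), or 1 of 8 without “0” 3 and “0” 4 (with 6.06%). Named cell type markers were called in KM vs W too (edgeR). Gfap (0.62), Tmem119 (0.49), Flt1 (0.36), Tek (0.51) and 4 of 6 choroid plexus markers were called higher, where 5.58% of all genes were called higher. Aldh1l1 (−0.46), Gja1 (−0.46) and Hba-a2 (−1.07) were called lower. The choroid plexus calls rest largely on KM 3, without which 2 of the 6 were called higher and 1 lower. The other markers just named were called in the same direction without KM 3. These markers were named through the same list, and their part in the nuclear values was not tested.

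The summed CPM of these 8 nuclear genes, scaled with TMM factors, was 925, 1065 and 848 in KM rats, 1135, 1006, 1478 and 671 in “0” rats, and 1364, 1152, 1298 and 1287 in W rats. KM 3 and “0” 4 were the lowest of the 11 and “0” 3 the highest. Without TMM factors KM 3 (943 CPM) and “0” 4 (757 CPM) were again below the 973 to 1376 CPM of the other 8 rats, but “0” 3 (1203 CPM) lay inside that range. CPM without TMM factors are scaled to totals that include the mitochondrial reads, 27.4% of the assigned reads in “0” 3. A high mitochondrial share thus lowers the CPM of all other genes on that scale, and the 1203 CPM is no independent check. Within the other 8 rats, Pearson's r between the TMM-scaled sum and the mitochondrial share was −0.0387 (exact permutation p = 0.930). Over all 11 rats r was 0.790, or 0.555 without TMM factors, a description that leans on the 3 rats lying apart.

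**Figure D5:**
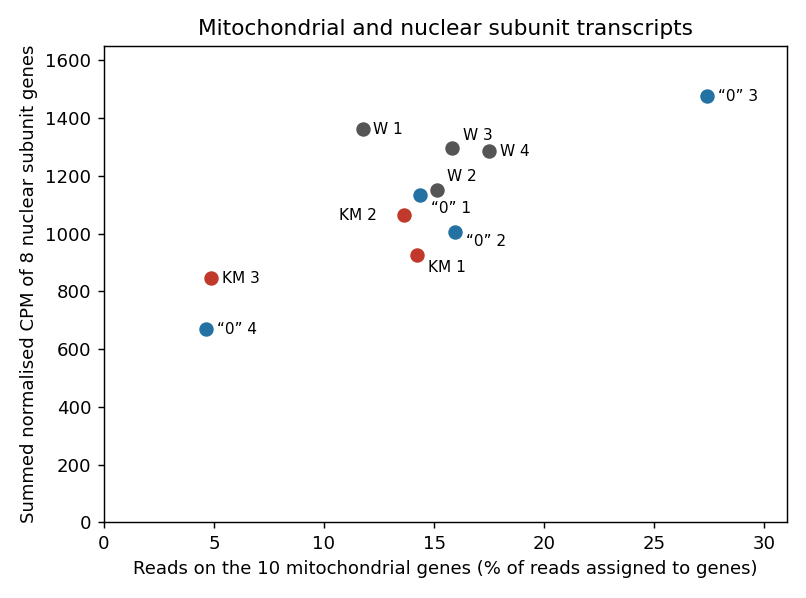
Summed TMM-scaled CPM of 8 nuclear subunit genes (y axis) against the share of reads on the 10 mitochondrial genes (x axis, % of reads assigned to genes), one point per rat coloured by strain (KM red, “0” blue, W grey). KM 3 and “0” 4 lie at the lower left and “0” 3 at the upper right, and the other 8 rats form a cluster between 11.8% and 17.5% and 925 and 1364 CPM. Without TMM factors the sum of “0” 3 lies inside the range of the 8, on a total that includes its mitochondrial reads.

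Few regulators of mitochondrial RNA had a symbol. Those named here, too, have their symbols from the study's list of differing genes. Their calls therefore restate that selection in part and are no independent evidence. Of 29 listed genes of mitochondrial transcription and RNA handling 2 did, namely Lrpprc, which stabilises mitochondrial messengers, and Mterf1, which binds mitochondrial DNA at a transcription termination site. Lrpprc was called higher in KM than in W rats at 0.30 (SE 0.11, adjusted p = 0.411, edgeR), and stood at 0.26 (SE 0.13) without KM 3, where it was not called. Mterf1 was called higher in KM than in “0” rats at 0.94 (SE 0.26, adjusted p = 0.987, edgeR) and lower in “0” than in W rats at −0.90 (SE 0.23, adjusted p = 0.318, edgeR), and it was called in both without the 3 rats, at 0.96 and −0.82. Of 10 genes of mitochondrial DNA maintenance only Polg2, the accessory subunit of the mitochondrial DNA polymerase, was named, and it was called higher in KM than in W rats at 0.99 (SE 0.25, adjusted p = 0.320, edgeR), or 0.86 without KM 3, where it was also called. In TMM-scaled CPM, Polg2 (5.28 in KM 3 and 5.59 in “0” 4, against 1.60 to 4.31 in the 8 rats) and Lrpprc (149 and 147, against 105 to 137) were highest in the rats with the lowest mitochondrial shares. Mterf1 was not, at 3.26 in KM 3 and 1.69 in “0” 4, against 1.99 to 4.39 in the 8 rats. How many other genes were highest in KM 3 and “0” 4 was not counted, and a link of Polg2 or Lrpprc to the mitochondrial share was not tested. Of 9 regulators of mitochondrial biogenesis 2 were named, both oestrogen-related receptors. Esrrg was called higher in KM than in W rats at 0.52 (adjusted p = 0.437, edgeR) and Esrra in KM than in “0” rats at 0.32 (adjusted p = 0.987, edgeR). Without the 3 rats Esrra was not called, though its value was 0.27 (SE 0.19). Vdac1, the outer membrane channel and the 1 named gene of 8 listed for mitochondrial mass, was called lower in KM than in W rats at −0.33 (adjusted p = 0.391, edgeR) and lower in “0” than in W rats at −0.64 (adjusted p = 0.460, edgeR), or −0.33 without “0” 3 and “0” 4. It stood at 154 TMM-scaled CPM in KM 3, 98.5 in “0” 3 and 86.3 in “0” 4, against 143 to 211 in the 8 rats. None of the 10 other listed mitochondrially encoded genes had a symbol, nor did Ppargc1a, Tfam, Polrmt or Slirp.

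Over the 11 rats, named genes whose TMM-scaled log2 CPM followed the mean of the mitochondrial genes most closely included Tle5 (Pearson's r = 0.960), Mrpl42 (0.957), Rpl35 (0.943) and Pcbp2 (0.929), among 1266 named genes that averaged 10 CPM or more. Mrpl42 encodes a protein of the mitochondrial ribosome, and Rpl35 encodes a protein of the cytosolic ribosome. Mrpl42 stood at 11.2 TMM-scaled CPM in KM 3, 9.76 in “0” 4 and 47.5 in “0” 3, and between 21.2 and 30.9 CPM in the other 8 rats. The likeness rests largely on the 3 rats, since over the other 8 r was 0.545 for Tle5, 0.0844 for Mrpl42, 0.304 for Rpl35 and 0.769 for Pcbp2. The lowest values were those of Tapbp (−0.893), Mib1 (−0.855), Igf2r (−0.833), Sft2d2 (−0.816) and Aatk (−0.796). Of all 9294 genes at this level, named or not, 46 had an r of at least 0.9 and 6 of −0.9 or lower, with a median of −0.01. Without TMM factors 15 genes had an r of at least 0.9 and 167 of −0.9 or lower, with a median of −0.42, and r over the 11 rats was 0.935 for Tle5, 0.941 for Mrpl42, 0.903 for Rpl35 and 0.841 for Pcbp2. On that scale the totals include the mitochondrial reads, so a high mitochondrial share lowers all other genes and pushes r down. The negative values are thus partly built into the scale.

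Several other measures differed in the 3 rats. Reads that fell on several genes made up 1.51% in KM 3 and 1.44% in “0” 4, below the 1.67% to 1.98% of the 8 rats, and 2.36% in “0” 3, above them. Reads outside genes made up 22.7% in “0” 4, above the 16.5% to 21.7% of the 8 rats, while KM 3 (19.3%) and “0” 3 (17.4%) lay inside. KM 3 and “0” 4 had the most assigned reads, 15140180 and 13623132. All 6 listed choroid plexus markers were named, and their summed TMM-scaled CPM was 7008 in KM 3 against 15.0 in “0” 3, 22.9 in “0” 4 and 21.1 to 68.1 in the 8 rats, with Ttr, the transthyretin gene and the most abundant of them, at 6451 CPM in KM 3. None of the 6 was at 0 in all rats. In “0” 4, where the mitochondrial share was as low, the choroid plexus sum lay inside the range of the 8 rats. The part of these measures in the mitochondrial values was not tested.

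Of the other marker lists, 3 of 5 astrocyte markers, 1 of 6 microglia markers (Tmem119), 2 of 7 erythroid markers, 2 of 5 endothelium markers and 2 of 6 immediate early genes were named, and 0 of 5 cerebellum markers. The astrocyte sum, led by Gfap, was 2542 TMM-scaled CPM in “0” 4, above the 1311 to 2308 CPM of the 8 rats, with 1567 CPM in KM 3 and 2129 CPM in “0” 3 inside. Gfap made up 2311 CPM of the sum in “0” 4, while Gja1, another of the 3 named astrocyte markers, was at 132 CPM there, below each of the 8 rats on this TMM scale, and Aldh1l1, the remaining one, was at 98.98 CPM, above their 51.2 to 82.7 CPM. The erythroid sum, led by Hba-a2, was 331 TMM-scaled CPM in KM 3, close to the lowest of the 8 rats (332 CPM), and without TMM factors 368 CPM, inside their range of 333 to 1790 CPM. The immediate early sum, led by Egr1, was 32.3 TMM-scaled CPM in KM 3, below the 47.2 to 127 CPM of the 8 rats. It was 52.9 CPM in “0” 3 and 47.0 CPM in “0” 4. Without TMM factors it was 36.0 CPM in KM 3, below their 45.6 to 131 CPM, with 43.1 CPM in “0” 3 and 53.1 CPM in “0” 4. Among the 8 rats, 10 library measures and marker sums were set against the mitochondrial share, and the lowest p was that of reads outside genes (Pearson's r = −0.588, exact permutation p = 0.122, adjusted 0.930, and Spearman's rho = −0.595, p = 0.132, adjusted 1.0). Over all 11 rats, as a description that leans on the 3 rats lying apart, r was 0.904 for reads on several genes, −0.762 for assigned reads and −0.581 for reads outside genes.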

How the data were processed

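Messenger RNA of the corpora quadrigemina of 3 KM, 4 “0” and 4 W rats was read in single 75-bp reads. The paper names Trimmomatic for trimming, STAR and Rnor_6.0 for mapping and HTSeq-count for counting, and the authors deposited raw counts per gene. Versions, the annotation release and the strand setting are not given in the sources used here. The 12 summary lines in each file, with names such as Assigned and Unassigned_NoFeatures, stayed out of library sizes. Whether HTSeq-count wrote the deposited files could not be settled from them. Strains came from sample titles. Each library is from 1 rat.

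The tools were edgeR 4.0.16 in R 4.3.3 (original QLF test, TMM, genes averaging 1 CPM or more, each pair of strains fitted on its own rats), limma 3.58.1 and DESeq2 1.42.0, with Benjamini-Hochberg adjustment over all genes tested. Single values were compared with exact permutation tests. Log2 CPM used a prior count of 2. Wilson intervals and the limit of 3 counts cover counting error only. Alternatives were other scalings, filters and tests, all rats in one fit, a block for the replicate number and leaving out rats. Leaving out the 3 rats that stood apart, and levels without TMM factors, were chosen after seeing the data.

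Symbols were available for 1763 of 32883 identifiers, from a supplementary table whose comparison columns (fold changes and p-values) were not used. The members and the gene lists were chosen with earlier results of these data known. The text names the 10 members, in each mitochondrial list the genes with the lowest p, the 5 genes most and 5 least like the members, and the most abundant gene of a marker list, and some genes that this rule names are not reported here. Sequences and coordinates of the 10 genes were not used here.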

Additional observations from a re-analysis of the deposited data

Results flagged for a closer look

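Among 38 values examined in “0” and W rats for a rat far from the others of its strain (gap to the nearest rat over the whole range, Dixon's test at the 95% level, groups of 4), 5 lay beyond the limit where chance gives about 1.9, and all 5 are shares of the mitochondrial reads in “0” 4. Co1 took 56.0% there, against 32.3% to 33.1% in the other “0” rats. Nd2 took 2.03% (the others 7.41% to 8.42%), Atp6 4.40% (13.3% to 13.9%), Cyb 4.29% (11.4% to 11.8%) and Co2 6.86% (7.91% to 8.09%). The shares add up to 100%, so the 5 values are not independent of each other. KM rats, 3 in number, were not examined in this way.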

How the results depend on the processing

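A first set of alternatives held other scalings, filters and tests, all rats in one fit, and the block. In this set the sign and call of each member were the same in 81 of 81 alternative values in KM vs W and 80 of 81 in KM vs “0”. In “0” vs W 8 of 81 changed sign. Scaled by library size alone, Co2 was −0.036 and Atp6 −0.019 in “0” vs W, and the median of all genes shifted to 0.12 in KM vs W and KM vs “0”. The block uses numbers that both strains have, so W 4 and “0” 4 fell out of the comparisons with KM. Its values there, which the first set includes, thus reflect the block and the missing rat together. With the block, “0” vs W gave −0.053 (Nd1), −0.22 (Nd2), −0.23 (Co2), −0.34 (Atp6), −0.075 (Co3) and −0.14 (Nd3), and KM vs “0” 1 called member (Nd5, −1.07) and 769 called genes. Same-numbered rats are different animals, and their deviations correlated at −0.188 to 0.191 in KM vs W, 0.0572 to 0.236 in KM vs “0” and −0.581 to 0.517 in “0” vs W, so the numbers were not taken as pairs. No filter gave 777 called genes in KM vs “0”. Without KM 3, “0” 3 and “0” 4, KM vs “0” had 1 called member and 1004 called genes, and “0” vs W gave −0.063 (Co2), −0.020 (Atp6) and −0.011 (Co1). As a difference of mean log2 percent, the summed share in “0” vs W was −0.19.

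Leaving out each rat in turn, called genes ranged from 954 (without W 1) to 1831 in KM vs W, 280 (without “0” 3) to 921 (without KM 3) in KM vs “0”, with 295 without KM 1, and 612 to 1017 in “0” vs W. Called members ranged from 0 to 2 in KM vs “0” and 0 to 1 in “0” vs W. The share differed by −5.78 to −1.10, −8.32 to −0.742 and −3.38 to 4.20 percentage points. Log2-fold changes that changed sign ranged from −0.56 to 0.052 (Nd5, KM vs W), −0.95 to 0.048 (Cyb, KM vs “0”) and, in “0” vs W, −0.34 to 0.57 (Nd1), −0.43 to 0.56 (Nd2), −0.30 to 0.48 (Co1), −0.49 to 0.41 (Co2), −0.54 to 0.49 (Atp6), −0.40 to 0.59 (Co3), −0.31 to 0.44 (Nd3) and −0.73 to 0.26 (Cyb). The cause was not tested.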
